A study of Mus musculus with 4 samples.

Results

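The Fc receptor genes for immunoglobulin described here are Fcgr1, Fcgr2b, Fcgr3, Fcgr4, Fcer1g and Fcgrt, and the regions described are the stretches of open chromatin at these 6 genes in mouse peritoneal macrophages. Peaks of 4 ATAC-seq libraries were merged wherever they had 1 bp or more in common, and a merged region was taken when the TSS nearest to its midpoint was that of a member or when it overlapped the body of a member (RefSeq NM and NR transcripts, mm10). This gave 34 of 70744 regions. ATAC-seq uses the Tn5 transposase to tag accessible DNA. The libraries came from LPMs (large peritoneal macrophages) of mice on the C57BL/6 background that were 9 weeks old, with the same number of sorted cells in each library and 1 library batch. The control mice, labelled RXRabfl/fl and written Rxrab fl/fl, carry floxed alleles of Rxra and Rxrb without Cre, and the mice labelled LysMCre+RXRabfl/fl, written LysMCre+ Rxrab fl/fl, carry the same floxed alleles with a Cre expressed from the lysozyme M locus, which deletes them in myeloid cells. Each genotype had 2 libraries, which the labels number 1 and 3 for Rxrab fl/fl, called the controls below, and 1 and 2 for LysMCre+ Rxrab fl/fl. Values are given in that order. According to the Reporting Summary of the study, ATAC-seq samples that failed to group with their genotype were left out, so the spread within a genotype may be too small.

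Fc receptors bind the constant part of antibodies and let a macrophage take up or kill what the antibody has coated. Fcgr1, Fcgr3 and Fcgr4 encode activating receptors for IgG, which signal through the common gamma chain encoded by Fcer1g, whereas Fcgr2b encodes the inhibitory receptor that dampens them. Fcgrt encodes the heavy chain of the neonatal Fc receptor, which pairs with beta-2 microglobulin inside the cell and returns IgG and albumin to the surface in place of their breakdown.

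The sequences of 8 regions are shown because the results turn on them. They are the 5 promoter regions, the upstream regions of Fcgr1 and Fcgr4 that were called in every library, and the gene-body region of Fcgrt. Each is the stretch within 100 bp of the summit with the lowest p among the libraries, on the strand of the gene, read from RefSeq GRCm38.p6, which is mm10. Capitals mark GAGGAA and GGAAGT, core letters bound by PU.1 and other ETS factors, on either strand. The motifs share the letters GGAA and can overlap.
Fcgr1 promoter (chr3:96293875-96294075, minus strand): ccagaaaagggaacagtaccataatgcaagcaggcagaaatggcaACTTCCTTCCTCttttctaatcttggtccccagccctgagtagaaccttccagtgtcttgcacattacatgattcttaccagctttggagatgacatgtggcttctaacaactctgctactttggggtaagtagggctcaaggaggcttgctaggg
Fcgr1 upstream region (chr3:96300768-96300968, minus strand): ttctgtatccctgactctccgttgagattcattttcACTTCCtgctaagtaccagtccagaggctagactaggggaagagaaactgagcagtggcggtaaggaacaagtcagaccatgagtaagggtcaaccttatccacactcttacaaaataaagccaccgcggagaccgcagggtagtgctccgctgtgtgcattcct
Fcgr3 promoter (chr1:171059347-171059547, minus strand): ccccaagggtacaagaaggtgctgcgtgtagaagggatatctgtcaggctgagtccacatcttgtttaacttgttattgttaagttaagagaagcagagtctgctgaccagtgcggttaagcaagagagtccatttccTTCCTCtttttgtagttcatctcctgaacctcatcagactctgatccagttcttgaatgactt
Fcgr4 upstream region (chr1:170998309-170998509, plus strand): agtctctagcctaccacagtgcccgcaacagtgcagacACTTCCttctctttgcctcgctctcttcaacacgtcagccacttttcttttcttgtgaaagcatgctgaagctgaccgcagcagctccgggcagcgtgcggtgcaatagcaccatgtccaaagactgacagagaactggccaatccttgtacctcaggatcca
Fcer1g promoter (chr1:171234279-171234479, minus strand): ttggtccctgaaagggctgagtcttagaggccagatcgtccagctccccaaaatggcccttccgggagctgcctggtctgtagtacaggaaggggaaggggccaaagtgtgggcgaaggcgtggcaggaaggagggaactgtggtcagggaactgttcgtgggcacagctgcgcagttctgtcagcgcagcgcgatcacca
Fcgr2b promoter (chr1:170975983-170976183, minus strand): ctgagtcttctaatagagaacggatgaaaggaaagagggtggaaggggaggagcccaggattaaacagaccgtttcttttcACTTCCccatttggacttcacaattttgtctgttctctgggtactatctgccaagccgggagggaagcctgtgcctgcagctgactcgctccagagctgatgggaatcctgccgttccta
Fcgrt promoter (chr7:45103725-45103925, minus strand): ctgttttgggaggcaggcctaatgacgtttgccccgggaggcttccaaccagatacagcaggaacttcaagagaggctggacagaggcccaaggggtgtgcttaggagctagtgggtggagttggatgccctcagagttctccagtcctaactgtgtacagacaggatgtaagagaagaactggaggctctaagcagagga
Fcgrt gene-body region (chr7:45095463-45095663, minus strand): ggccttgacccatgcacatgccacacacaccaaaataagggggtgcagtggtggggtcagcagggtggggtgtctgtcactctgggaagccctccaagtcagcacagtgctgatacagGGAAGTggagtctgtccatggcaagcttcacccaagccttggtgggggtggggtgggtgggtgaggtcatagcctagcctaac

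Of these 8 stretches, 6 held at least 1 of these cores, and the Fcer1g and Fcgrt promoters held neither. The shares that follow are for each core alone, so the 6 of 8 cannot be set against them. Over all 70744 regions, 36.0% held GAGGAA and 35.0% held GGAAGT within 100 bp of the summit. Among the 34 Fc receptor regions the numbers were 11 and 13 (32.4 and 38.2%). A match is a description of the letters and not of binding.

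The activating receptors Fcgr3 and Fcgr4 and the inhibitory Fcgr2b lie side by side on chromosome 1, with Fcer1g on the same chromosome, whereas Fcgr1 lies on chromosome 3 and Fcgrt on chromosome 7. Fcgr2b had 8 regions, Fcgr4 had 7, Fcgr3 had 6, Fcgr1 had 5, and Fcer1g and Fcgrt had 4 each. By their midpoints 5 were in promoter-TSS (1000 bp upstream to 200 bp downstream of a TSS), 12 were in introns and 17 were intergenic. The 21 regions from the downstream side of Fcgr2b to the upstream side of Fcgr3 span 108.7 kb. In this stretch 14 and 4 were called in the controls against 19 and 16 in LysMCre+ Rxrab fl/fl, where the libraries called 52.0, 21.9, 90.7 and 77.2% of all regions.

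Over all 6 genes, 20 and 10 of the 34 regions were called in the controls (58.8 and 29.4%) against 29 and 25 in LysMCre+ Rxrab fl/fl (85.3 and 73.5%). For all regions these shares were 52.0 and 21.9% against 90.7 and 77.2%. The libraries thus differed in how many peaks they held, from 16097 in Rxrab fl/fl replicate 3 to 65421 in LysMCre+ Rxrab fl/fl replicate 1, and the Fc receptor genes followed that order. Of the 34 regions 9 were called in every library (26.5%), against 21.5% of all regions. Of the 10 called in Rxrab fl/fl replicate 3, 9 were these.

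The controls lacked a call that both LysMCre+ Rxrab fl/fl libraries had at 7 Fc receptor regions (20.6%). The same pattern held for 22.8% of all regions, so the Fc receptor share was near the background. Without Rxrab fl/fl replicate 1 the count rose to 14 of 32 (43.8%), and that of all regions to 49.2%. These 7 were 3 at Fcgr4, 2 at Fcgr2b, 1 at Fcer1g and 1 in the body of Fcgrt, with fold enrichments of 3.27 to 13.6. The reverse pattern was seen at 1 Fc receptor region, in Fcer1g, and at 0.0452% of all regions. When the 16097 peaks of lowest q value were taken from each library, 13 Fc receptor regions were left. Of these 13, 0 were called in LysMCre+ Rxrab fl/fl alone and 0 in the controls alone by the same rule, against 7.82 and 7.22% of all regions. Under that setting 5 of the 13 were called in every library, against 46.1% of all regions.

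**Figure D1:**
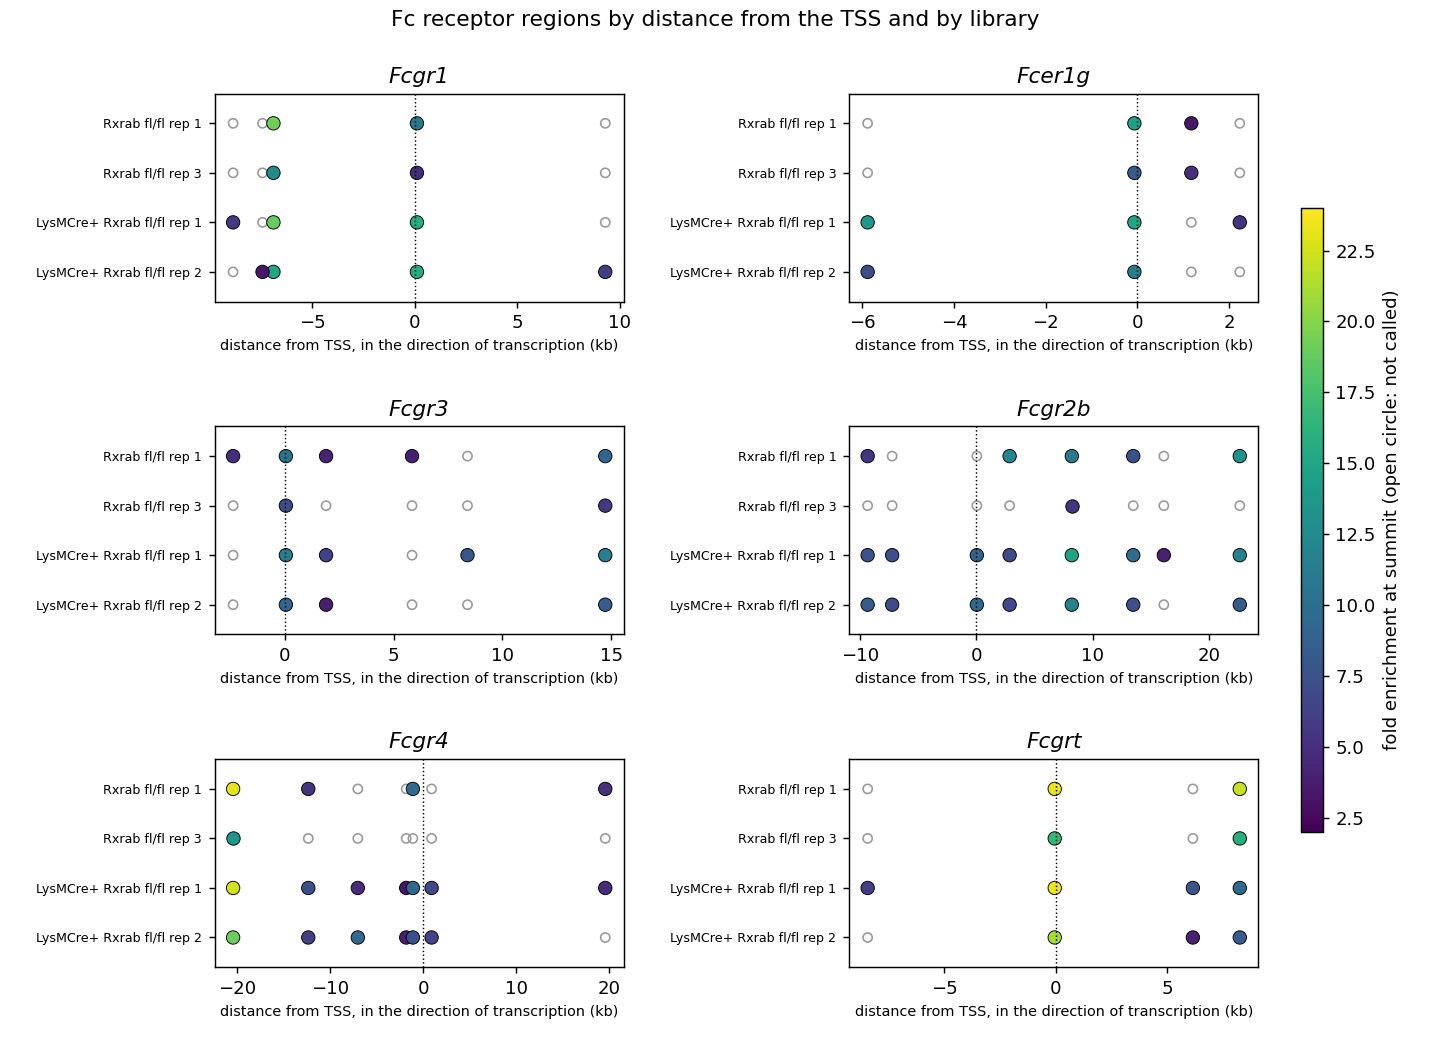
Each panel shows the regions of 1 gene by the distance of their midpoint from the TSS, in kb in the direction of transcription, with 1 row per library. Filled circles are called regions coloured by fold enrichment and open circles are regions with no call in that library. The row of Rxrab fl/fl replicate 3 holds the fewest filled circles, 10 of 34 in all.

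Fcgr1, the high-affinity activating receptor, had 2 regions that were called in every library. Fold enrichment is the tags at the summit plus 1 over the local background plus 1, and the added 1 weighs most where tags are few. The promoter region of Fcgr1 (chr3:96293431-96294305, overlapping an exon by 86 bp) had 10.9 and 4.85 in the controls against 15.6 and 15.7 in LysMCre+ Rxrab fl/fl. Both LysMCre+ Rxrab fl/fl libraries were above both control libraries. The log2 fold change, centred on the median of each library and signed as LysMCre+ Rxrab fl/fl minus Rxrab fl/fl here and below, was 0.74 (SE 0.22), and this missed the threshold (adjusted p = 0.0947, limma over 15199 regions). Without Rxrab fl/fl replicate 3, where the summit held 9 tags, it was 0.29 (adjusted p = 0.471, limma), without replicate 1 of the controls 0.85 (adjusted p = 0.00689, limma), and without LysMCre+ Rxrab fl/fl replicate 1 or 2 it was 0.91 or 0.57 (adjusted p = 0.316 and 0.632, limma), where a lone library is assumed to vary like those of the other genotype. With a mean-variance trend its adjusted p was 0.0350 (limma). In all of these the size was under the threshold of 1, which it passed without centring (1.11, adjusted p = 0.940, limma) and with regions called in at least 2 libraries (1.00, adjusted p = 0.114, limma). These last settings moved regions upward in general, with medians over all regions tested of 0.28 and 0.26 against −0.09 in the main fit. The intergenic region 6.91 kb upstream (chr3:96300566-96301187) was the stronger in the control libraries, at 19.2 and 12.6, and had 18.8 and 15.1 in LysMCre+ Rxrab fl/fl. There the groups overlapped before centring, after which both controls were the higher, and the log2 fold change was −0.25 (SE 0.22, adjusted p = 0.510, limma). The other 3 Fcgr1 regions were each called in a single LysMCre+ Rxrab fl/fl library, with fold enrichments of 3.21 to 5.91.

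Fcgr3, a low-affinity activating receptor, also had 2 regions called in every library. Its promoter region (chr1:171059038-171059639) had fold enrichments of 10.5 and 7.14 in the controls against 11.4 and 9.29 in LysMCre+ Rxrab fl/fl, and the groups overlapped. The log2 fold change was −0.11 (SE 0.22, adjusted p = 0.787, limma). The intergenic region 14.7 kb downstream of the TSS (chr1:171044332-171045021) lies beyond the end of the gene and had 9.28 and 5.60 against 11.2 and 8.41. Its summits were spread over 311 bp, so the libraries need not show the same element, and its log2 fold change was 0.06 (SE 0.21, adjusted p = 0.889, limma). Of the other 4 regions, the intron region 1.90 kb downstream was called in every library but Rxrab fl/fl replicate 3, and 3 were called in a single library. Those 3 included 2 found in Rxrab fl/fl replicate 1 alone, at fold enrichments of 3.91 and 4.92.

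Fcgr4, an activating receptor of intermediate affinity, was the member without a promoter-TSS region by midpoint. The nearest region upstream (chr1:171017485-171018123) had its midpoint 1122 bp and its summit of highest fold enrichment 984 bp from the TSS, just outside and just inside the window. Its fold enrichment was 9.52 in replicate 1 of the controls, with no call in replicate 3, against 9.57 and 7.33 in LysMCre+ Rxrab fl/fl. A single Fcgr4 region was called in every library, and it was intergenic and 20.5 kb upstream (chr1:170998181-170998734). Its fold enrichments were 23.1 and 13.6 in the controls against 22.5 and 19.1 in LysMCre+ Rxrab fl/fl, which put it at the 97.1, 91.2, 97.1 and 97.4 percentile of the peaks of these libraries. This was among the strongest of the Fc receptor regions, and its groups overlapped before centring, after which the controls were barely the higher (log2 fold change −0.14, SE 0.21, adjusted p = 0.708, limma). It lies between Fcgr2b and Fcgr4, and assignment to Fcgr4 rests on distance alone. The 3 regions called only in the LysMCre+ Rxrab fl/fl pair lay 7.05 and 1.84 kb upstream and 0.892 kb downstream of the TSS, with pileups of 10 to 27 tags.

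Fcer1g, whose product carries the signal of the activating receptors, had its promoter region (chr1:171234004-171234826) called in every library. Its fold enrichments were 14.6 and 8.33 in the controls against 15.1 and 11.4 in LysMCre+ Rxrab fl/fl, and the groups overlapped before centring. After centring both controls were above both LysMCre+ Rxrab fl/fl libraries, but its spread over the 4 libraries was the smallest of the 9 regions called in all (SD 0.09 on the log2 scale), and the log2 fold change was −0.12 (SE 0.21, adjusted p = 0.767, limma). The intron region 1.18 kb downstream (chr1:171233063-171233285) was the region called in the control libraries alone, at 3.35 and 5.00, with 21 and 11 tags at the summit. These values stood at the 1.23 and 12.9 percentile of the peaks of their libraries, and with an equal number of peaks per library the region was called in replicate 3 of the controls alone. The Fcer1g region called in LysMCre+ Rxrab fl/fl alone lies 5.88 kb upstream and had 13.6 and 7.21, on 33 and 14 tags.

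Fcgr2b, the inhibitory receptor, had the most regions of the 6 genes. Its promoter region (chr1:170975789-170976226, overlapping an exon by 171 bp) was not called in either control library and had fold enrichments of 8.99 and 9.43 in LysMCre+ Rxrab fl/fl, on 33 and 39 tags. These values were at the 56.0 and 67.3 percentile of the peaks of those libraries. An absent call is not a value of 0, and no fold is given against it. The other 4 promoter-TSS regions of the members were called in every library, as were 55.8% of all promoter-TSS regions, and 8.91% of all promoter-TSS regions shared the pattern of Fcgr2b.

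Within the gene, the Fcgr2b region 8.22 kb downstream of the TSS (chr1:170967546-170968158, midpoint in an intron) was called in every library. It had 11.0 and 5.34 in the controls against 14.8 and 11.7 in LysMCre+ Rxrab fl/fl. Both LysMCre+ Rxrab fl/fl libraries were above both control libraries, but the log2 fold change of 0.41 (SE 0.21) missed the threshold (adjusted p = 0.257, limma), and it was 0.03 without Rxrab fl/fl replicate 3. In 3 of the remaining regions, Rxrab fl/fl replicate 1 was above at least 1 of the LysMCre+ Rxrab fl/fl libraries before centring. The intron region 2.88 kb downstream had 12.0 in Rxrab fl/fl replicate 1 against 6.94 and 6.97, the intergenic region 22.6 kb downstream had 13.1 against 11.8 and 8.33, and the intron region 13.5 kb downstream had 7.49 against 9.74 and 7.34. After centring, Rxrab fl/fl replicate 1 was still above both at the regions 2.88 and 22.6 kb downstream. At the region 13.5 kb downstream it was then below both (−0.96 against −0.64 and −0.71 on the log2 scale). None of these 3 was called in Rxrab fl/fl replicate 3.

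Fcgrt, the neonatal Fc receptor, held the strongest Fc receptor region and the only one that passed the test. Its promoter region (chr7:45103557-45104184, overlapping an exon by 183 bp) had fold enrichments of 23.3 and 16.7 in the controls against 23.5 and 21.0 in LysMCre+ Rxrab fl/fl. It stood at the 97.4, 97.7, 97.9 and 98.8 percentile of the peaks of these libraries, and the groups overlapped (log2 fold change −0.20, SE 0.23, adjusted p = 0.630, limma).

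The gene-body region of Fcgrt (chr7:45095271-45095874, midpoint in an intron, overlapping exons by 159 bp) lies 8.25 kb downstream of the Fcgrt TSS, and its summits were spread over 127 bp, so here too the libraries need not show the same element. Its nearest TSS is that of the neighbour Rcn3, which encodes reticulocalbin 3, 3.36 kb away, so it belongs to Fcgrt by overlap and not by nearest TSS. It had fold enrichments of 22.1 and 15.9 in the controls against 9.40 and 8.21 in LysMCre+ Rxrab fl/fl. Both control libraries were above both LysMCre+ Rxrab fl/fl libraries. The fold enrichment was lower in LysMCre+ Rxrab fl/fl by a log2 fold change of −1.46 (SE 0.23, adjusted p = 0.0450, limma), or 2.76-fold. It stood at the 96.0 and 96.6 percentile of the peaks of the control libraries and at the 58.5 and 58.7 percentile in LysMCre+ Rxrab fl/fl, in lists of different length. The region did not pass when LysMCre+ Rxrab fl/fl replicate 1 was left out (−1.39, adjusted p = 0.0759, limma, with the lone library of that genotype assumed to vary like the controls), without centring (−1.09, adjusted p = 0.940, limma) or with regions called in at least 2 libraries (−1.20, adjusted p = 0.0558, limma).

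Fold enrichment is a ratio of tags to local background, with the constant given above added to both. At this region these parts, each set against the rest of the library, moved in opposite directions. The summit held 227 and 47 tags in the controls against 153 and 88 in LysMCre+ Rxrab fl/fl. Over the median pileup of the regions called in every library, these were 2.34 and 2.35 against 1.55 and 1.35. The local background was 9.30 and 2.02 tags in the controls against 15.4 and 9.84 in LysMCre+ Rxrab fl/fl, or 1.60 and 1.12 against 2.71 and 2.23 times the median background of those regions. On the pileup alone the log2 fold change was −0.70 (SE 0.22, adjusted p = 0.0662, limma), which missed the threshold. At the Fcgrt promoter the scaled pileup was 2.93 and 3.05 in the controls against 3.17 and 3.63 in LysMCre+ Rxrab fl/fl, and its log2 fold change on the pileup was 0.18 (SE 0.22, adjusted p = 0.591, limma).

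**Figure D2:**
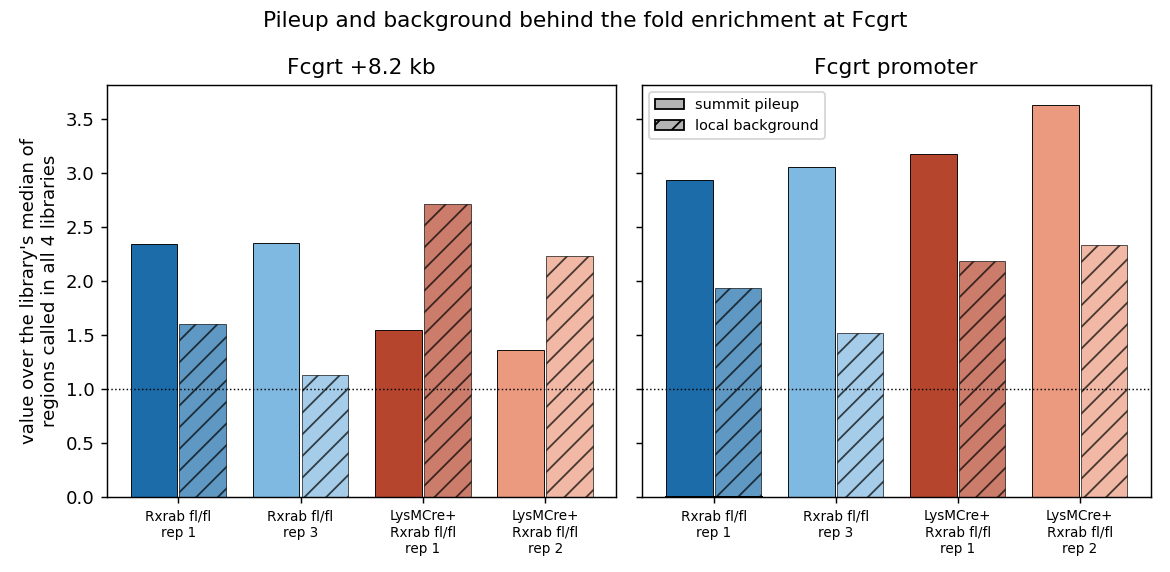
Bars start at 0 and show, for each library, the summit pileup (plain) and the local background (hatched) of the Fcgrt gene-body region at left and of the Fcgrt promoter region at right, each divided by the median over regions called in all 4 libraries (dotted line at 1). At left the plain bars are 2.34 and 2.35 in the controls against 1.55 and 1.35 in LysMCre+ Rxrab fl/fl, and the hatched bars are higher in LysMCre+ Rxrab fl/fl.

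In the stretch of Rcn3 and Fcgrt 8 regions were found, of which 4 and 3 were called in the controls and all 8 in each LysMCre+ Rxrab fl/fl library, where the libraries called 52.0 and 21.9% against 90.7 and 77.2% of all regions. The 3 regions around the Rcn3 TSS (chr7:45090670-45090958, chr7:45091105-45091535 and chr7:45092084-45092324) were called in LysMCre+ Rxrab fl/fl alone, at fold enrichments of 3.45 to 4.53 over local backgrounds of 8.50 to 13.0 tags. Another region called in LysMCre+ Rxrab fl/fl alone lies in the body of Fcgrt, 6.15 kb downstream of its TSS, with fold enrichments of 7.71 and 4.02 on 92 and 30 tags over backgrounds of 11.1 and 6.72. Whether the higher background lowered the fold enrichment apart from the pileup was not tested.

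Over the 9 Fc receptor regions called in every library, limma called 1 lower and 0 higher in LysMCre+ Rxrab fl/fl at the threshold used throughout (adjusted p under 0.05, change past 1 on the log2 scale). Among all 15199 regions tested it called 0.0461% lower and 0.0395% higher. At an unadjusted p under 0.05 there were 2 of 9 and 3344 of 15199, and the 2 were the Fcgr1 promoter and the Fcgrt gene-body region. On the summit pileup 0 of the 9 passed in either direction, against 4.98% lower and 2.49% higher among 15196 regions. The median log2 fold change of the 9 was −0.12 on fold enrichment and −0.09 on the pileup, and that of all regions tested was −0.09 and −0.10. A two-sided exact permutation test of 2 against 2 libraries cannot give a p under 0.333, so the calls rest on the spread that limma pools over regions.

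**Figure D3:**
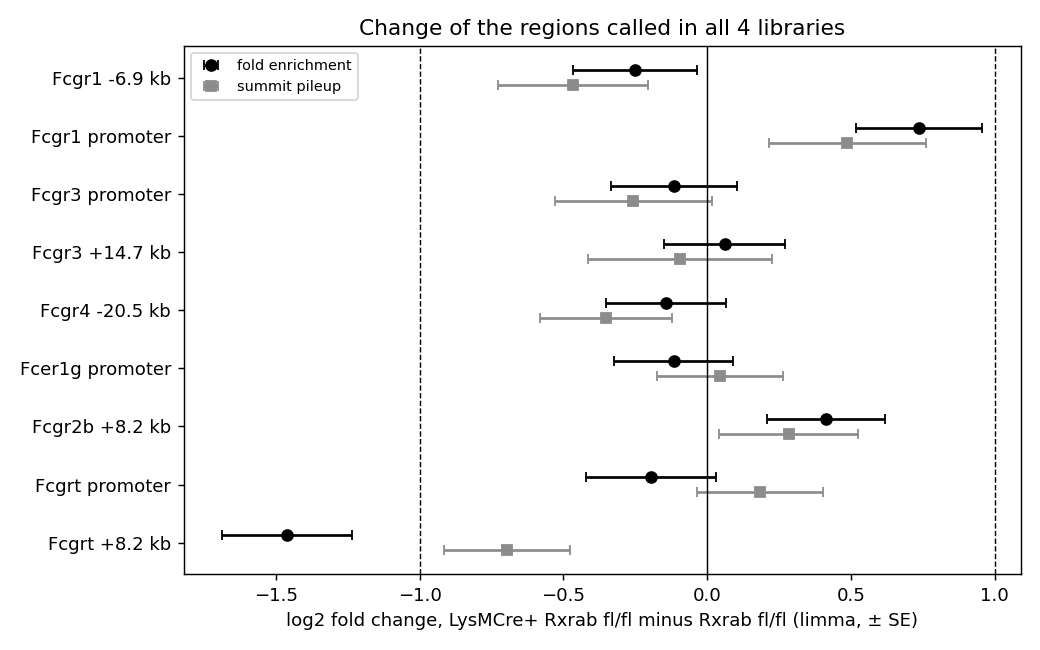
Points show the log2 fold change of each Fc receptor region called in all 4 libraries, LysMCre+ Rxrab fl/fl minus Rxrab fl/fl, on fold enrichment (black circles) and on summit pileup (grey squares), with bars for the SE from limma and dashed lines at −1 and 1. On fold enrichment the Fcgrt gene-body region, at −1.46, is apart from the other 8, of which the Fcgr1 promoter is highest at 0.74. On pileup it is lowest at −0.70, but its bar overlaps that of the Fcgr1 region 6.91 kb upstream, at −0.47.

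By mean centred log2 fold enrichment over the 4 libraries, the order was the Fcgrt promoter (0.82, SD 0.23), the Fcgr4 region 20.5 kb upstream (0.69, SD 0.12), the Fcgr1 region 6.91 kb upstream (0.45, SD 0.20), the Fcgrt gene-body region (0.11, SD 0.87), the Fcer1g promoter (0.02, SD 0.09), the Fcgr1 promoter (−0.15, SD 0.46), the Fcgr2b region 8.22 kb downstream (−0.24, SD 0.24), the Fcgr3 promoter (−0.33, SD 0.18) and the Fcgr3 region 14.7 kb downstream (−0.50, SD 0.10). A value of 0 is the median of the regions called in every library. The range of each region over the libraries overlapped that of the next in this order, so the order is loose, and the position of the Fcgrt gene-body region differed by genotype.

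**Figure D4:**
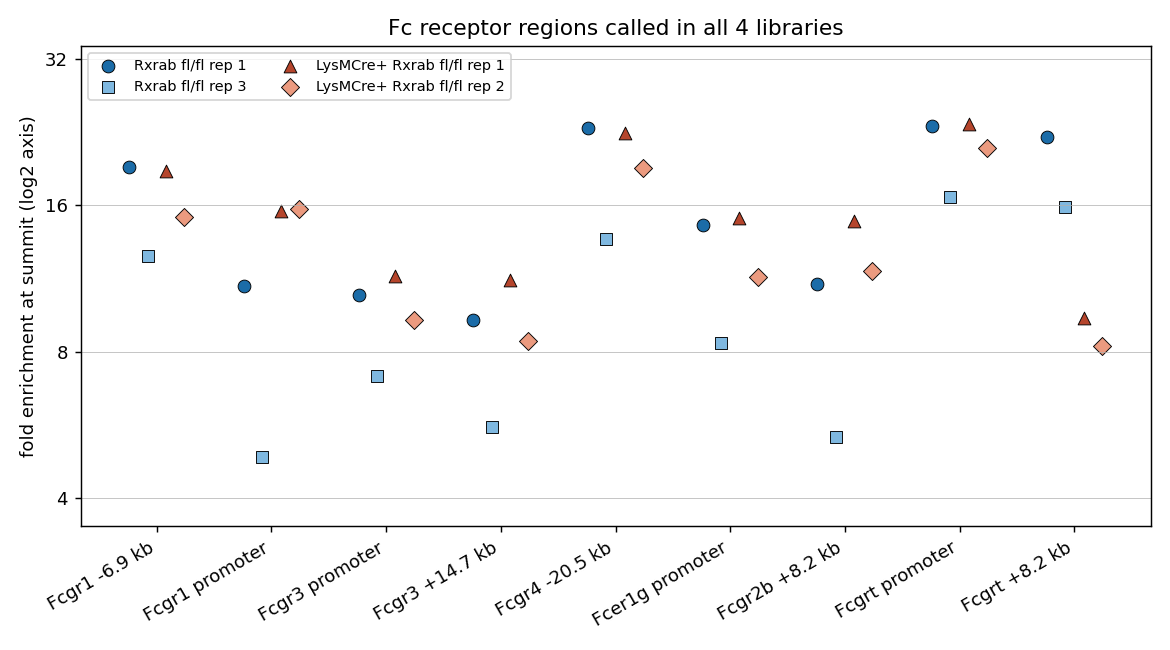
Points show the fold enrichment at the summit, on a log2 axis, of the 9 Fc receptor regions called in all 4 libraries, with 1 symbol per library. Rxrab fl/fl replicate 3 is the lowest library at 8 of the 9 regions, and at the Fcgrt gene-body region both LysMCre+ Rxrab fl/fl libraries, at 9.40 and 8.21, are below both control libraries.

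Other letters at the summits were also counted on both strands. TTGCNNAA, of the C/EBP type, was found at 7 of the 34 Fc receptor regions (20.6%, against 11.0% of all regions), AGATAA, of the GATA type, at 6 (17.6 against 6.43%) and TGANTCA, of the AP-1 type, at 7 (20.6 against 12.7%). AGGTCA, the single nuclear receptor site, was found at 9 (26.5 against 13.0%), among them the Fcgrt gene-body region, and GGGNGTGG, of the KLF type, at 4 (11.8 against 10.4%). Of the 9 regions called in every library, AGGTCA was found at 1, the Fcgrt gene-body region, and AGATAA and TGANTCA at 0. TTGCNNAA was found at 2 of them and GGGNGTGG at 1. The ETS-IRF composite was found at 2, the Fcgr2b promoter and the Fcgr1 region 6.91 kb upstream (5.88 against 4.32%). CACGTG and the DR1 element were found at 0, against 5.15 and 0.165% of all regions.

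In the RefSeq promoter windows of GRCm38.p6, all 6 members had an entry. GAGGAA was found in those of Fcgr1, Fcgr3 and Fcgr4 and in 28.3% of all 32851 windows, and GGAAGT in those of Fcgr1, Fcgr2b and Fcgr4 and in 23.8%.

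Fcgr genes arose by duplication, and reads that align equally well to several places fail a filter on mapping quality, so copies of each region were looked for in mm10. Near-identical stretches elsewhere (at least 90% identity over at least 50 bp, repeats masked) were found for 3 of the 34 regions. A stretch of 215 bp of the Fcgr2b region 8.22 kb downstream was 96.7% identical to one in Fcgr3, where 0 regions were called. A stretch of the Fcgr1 promoter region was 92.0% identical, over an alignment of 176 positions, to one upstream of the Fcgr1 TSS, also with 0 regions called. In both regions 0 of the 4 summits lay in the shared stretch. The Fcgr4 region 19.6 kb downstream had 10 such copies, the longest of 108 bp, where 1 region was called.

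The kinases, adaptors, lipid enzymes and phosphatases through which Fc receptors signal, a list of 26 genes that includes B2m, had 307 regions, of which 76 were called in every library (24.8%, against 21.5% of all regions) and 60 in LysMCre+ Rxrab fl/fl alone (19.5 against 22.8%). limma on fold enrichment called 0 of the 76 in either direction, with 10 at an unadjusted p under 0.05, against 3344 of 15199 over all regions. On the pileup it called 1 higher, near Plcg2, a phospholipase C (log2 fold change 1.34), and 1 lower, near Cblb, a ubiquitin ligase (−1.18), against 2.49% higher and 4.98% lower over all regions. The median log2 fold change of the list was −0.07 on fold enrichment and 0.11 on the pileup. On fold enrichment the promoters with the largest changes were those of the ligase Cbl (−0.57) and the adaptor Gab2 (−0.40) and, in the other direction, of Plcg1 (0.22) and the phosphatase gene Ptpn6 (0.04), and none of these 4 passed the threshold. On the pileup Gab2 was near 0 and Plcg1 was lower (−0.19), so this order holds for fold enrichment only. The promoter of B2m, the partner of Fcgrt, had 14.3 and 8.42 in the controls against 13.7 and 10.2 in LysMCre+ Rxrab fl/fl (log2 fold change −0.26, adjusted p = 0.477, limma).

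The 13 other genes for immunoglobulin receptors, most of them used by lymphocytes, epithelia or mast cells, had fewer regions, 32 in all, of which 3 were called in every library (9.38%, against 21.5% of all regions) and 9 in LysMCre+ Rxrab fl/fl alone (28.1 against 22.8%), 5 of these 9 at Fcrls. Pigr, Fcer1a and Ms4a2 had 0 regions. limma called 0 of the 3, with 2 at an unadjusted p under 0.05 (3344 of 15199 over all regions), and on the pileup it also called 0, with 1 at an unadjusted p under 0.05 (5047 of 15196). The single promoter called in every library was that of Trim21, a cytosolic antibody receptor, at 18.8 and 6.80 in the controls against 26.4 and 26.3 in LysMCre+ Rxrab fl/fl (log2 fold change 0.85, adjusted p = 0.0850, limma).

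Among the strongest regions of 10095 other genes, those nearest in Euclidean distance of centred log2 fold enrichment over the 4 libraries were at Ckap2l (distance 0.03) and Il10rb (0.07) for Fcgr4, Ttyh3 (0.05) and Ankrd33b (0.06) for Fcgr1, Npr3 (0.06) and Ppie (0.07) for Fcer1g, and Gm15545 and Fam76a (both 0.05) for Fcgrt. For Fcgr3 they were at Trex1 (0.08) and Mettl21a (0.10), and for Fcgr2b at Sfmbt1 and Rpl5 (both 0.11). With 4 values per region such likeness is a description only.

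The cells were checked by promoter-TSS calls at marker genes. Of 10 LPM markers, 9 and 7 were called in the controls against 8 and 8 in LysMCre+ Rxrab fl/fl, with summed fold enrichments of 95.1 and 58.8 against 81.2 and 75.6. Adgre1 was the strongest of them by the sum over the libraries, the measure also used below, and Prg4 was called in none. Of 10 markers of small peritoneal and monocyte-derived macrophages, 4 and 2 were called in the controls against 9 and 7 in LysMCre+ Rxrab fl/fl, with sums of 34.7 and 11.5 against 81.8 and 53.3. Irf4 was the strongest, and Ccr2 was called in none. The calls of this second list, unlike those of the LPM markers, were more in the libraries with more peaks, which are those of LysMCre+ Rxrab fl/fl, and their part in the Fc receptor calls was not tested.

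Some markers of NK cells, mast cells and granulocytes, which also carry Fc receptors, were counted too. Of 6 NK cell markers 0 and 0 were called in the controls against 2 and 1 in LysMCre+ Rxrab fl/fl, with Klrb1c the strongest, and Ncr1, Klrd1, Prf1 and Gzma were called in none. Of 7 mast cell markers 2 and 0 against 2 and 2 were called, with sums over the list of 12.0 and 0 against 21.1 and 19.9. Hdc was the strongest of them, and Cpa3, Mcpt4, Cma1, Kit and Tpsb2 were called in none. Of 9 granulocyte markers 2 and 0 against 3 and 2 were called, with sums over the list of 23.9 and 0 against 30.3 and 25.5. Here S100a8 was the strongest, and S100a9, Ly6g, Siglecf, Epx, Prg2 and Mpo were called in none.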

How the data were processed

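ATAC-seq libraries of sorted LPMs were compared between Rxrab fl/fl (replicates 1 and 3) and LysMCre+ Rxrab fl/fl (replicates 1 and 2). Per the study's methods, reads were trimmed with cutadapt, aligned to mm10 in pairs, filtered for mapping quality and duplicates, cleared of mitochondrial and sex chromosome reads, and used for peak calls in each library with MACS2 2.1.1. The deposited fold enrichment is a ratio, the tags at the summit plus 1 over the local background plus 1. The deposited −log10 p-value and −log10 q-value describe the summit, and the deposited score was not used. The deposited summit offset placed each summit. From the ratio and p-value a whole-number pileup and its background were solved for at least 99.9969% of the peaks of each library. The lowest background, which follows depth, came to 1.97 and 1.06 tags (controls) against 1.33 and 1.08 (LysMCre+ Rxrab fl/fl) over 200 bp.

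Regions called in all 4 libraries were tested with limma 3.58.1 in R 4.3.3 on log2 fold enrichment from which the median of the library was subtracted, without covariates, with Benjamini-Hochberg adjustment over all regions (threshold: adjusted p under 0.05 with a change past 1 on the log2 scale). limma and the pileup solution were tested on simulated data. Regions were placed on 45756 RefSeq transcripts of 26180 genes. Copies were searched with blastn 2.17.0. Scripts used Python 3.11.15, numpy 2.4.6, pandas 2.3.3, scipy 1.17.1, pysam 0.24.0 and matplotlib 3.10.9. Named genes are the members, Rcn3, signalling and other receptor genes past the threshold or with the 2 largest promoter changes each way, and the 2 nearest patterns per member. Also named are B2m, Fcrls, other receptor genes without a region, and the markers that were strongest in their list or never called. Members and lists were chosen with earlier results of these data known. Nothing given here states whether the libraries of a genotype are separate mice, so p-values cover the spread between these libraries only. Alternatives were other thresholds, numbers of peaks, merging, centring, the pileup, and leaving out each library.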

Additional observations from a re-analysis of the deposited data

How the results depend on the processing

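With the same number of peaks per library, 0 Fc receptor regions were called in LysMCre+ Rxrab fl/fl alone, 0 in Rxrab fl/fl alone and 5 in every library. Leaving out each library in turn gave 7 to 14, 1 to 3 and 9 to 16. Of all regions, 49.2% had the pattern that 14 of 32 had without Rxrab fl/fl replicate 1, and without Rxrab fl/fl replicate 3 the 3 and 16 of 34 (8.82 and 47.1%) stood against 1.78 and 47.1% of all regions. All regions called higher in LysMCre+ Rxrab fl/fl by limma numbered 379 on summit pileup, 0 without centring, 185 with regions called in at least 2 libraries, 61 with a mean-variance trend and 23 with the same number of peaks, and those lower 757, 0, 2, 76 and 18, or 1 after quantile normalization. Leave-outs gave 3 to 735 higher and 9 to 540 lower. In a leave-out the lone library is assumed to vary like those of the other genotype. Without centring and with regions called in at least 2 libraries, the median log2 fold change of all regions tested was 0.28 and 0.26. In the main fit it was −0.09, so these settings moved regions upward in general. The reversed values given below for these settings were all under those medians. The Fcgrt gene-body region no longer passed, so that 0 Fc receptor regions were lower, on pileup, without centring and with regions called in at least 2 libraries, and leave-outs gave 0 to 1. In the signalling list pileup gave 1 higher and 1 lower, and leave-outs gave 0 to 1 higher and 0 to 2 lower. Log2 fold changes reversed, without centring and with regions called in at least 2 libraries, to 0.22 and 0.12 at the Fcgr4 region 20.5 kb upstream, 0.25 and 0.15 at the Fcgr3 promoter, 0.25 and 0.15 at the Fcer1g promoter, 0.12 and 0.0155 at the Fcgr1 region 6.91 kb upstream and 0.17 and 0.0686 at the Fcgrt promoter, and on pileup to 0.0442 at the Fcer1g promoter, 0.18 at the Fcgrt promoter and −0.0934 at the Fcgr3 region 14.7 kb downstream, where leave-outs gave −0.16 to 0.10. Leave-outs kept the sign elsewhere, from −0.38 to −0.0957 at the Fcgr4 region, −0.31 to −0.0972 at the Fcgr3 promoter, −0.38 to −0.0804 at the Fcer1g promoter and −0.43 to −0.11 at the Fcgrt promoter. No paired analysis was possible because the genotypes share only replicate number 1.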
